A study of Mus musculus with 11 samples.

Results

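The normal tailbud of the mouse embryo at embryonic day 8.5 was described from 4 wild-type libraries, which are 4 of the 11 libraries of the series. The members were every column of the deposited count and FPKM tables whose name carries the wild-type prefix, and no measured value entered that choice. The tissue was microdissected, and the labels give it as tailbud and mesoderm that holds neuromesodermal progenitors (NMPs), somitic mesoderm and intermediate mesoderm. The labels name no mutant allele and no agent for the wild-type embryos, and do not say whether a library is 1 embryo or a pool, nor its strain or somite number. The other 7 libraries carry point mutations of Fgfr1 and were not compared here. Because nothing in the labels says that the 4 libraries came from separate embryos, the spread given below measures only the spread between these libraries, which may be technical.

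The tailbud extends the body axis. Neuromesodermal progenitors at its core keep T (brachyury) and Sox2 together, and their descendants become either spinal cord, where Sox2 is kept, or presomitic mesoderm, where Tbx6 and Msgn1 are switched on. Wnt and FGF signals from the tail end hold cells in the undifferentiated state, retinoic acid from the somites opposes them, and oscillating Notch signalling times the formation of somites in the presomitic mesoderm. Cdx and Hox transcription factors give the descendants their position along the axis.

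Levels between genes are given as FPKM, fragments scaled to gene length and library size, as the authors deposited them, and values always stand in the order of libraries 24, 25, 26 and 33, which are the numbers in the column names. Total counts were 18702017, 21146462, 25453070 and 19111564. A gene is called detected when its FPKM was 1 or more in each of the 4 libraries. There is 1 group, so no test between groups was made, and with 4 libraries a two-sided exact paired permutation test of 2 genes cannot go below p = 0.125. In its place stands the number of libraries in which 1 gene was above the other.

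Libraries 26 and 33 lay at opposite ends of the first principal component, with the other 2 between them. Leaving out library 33 moved the mean of 16 of the 186 genes whose values are given by over 1.5-fold. Leaving out library 26 moved that of 8, against 1 for library 24 and 1 for library 25. The 186 genes were partly chosen for their spread, and the count was not made over all genes. The first principal component of log2 CPM (counts scaled to library size) held 54.2% of the variance and placed library 26 at -36.0 and library 33 at 42.2, with libraries 24 and 25 between -5.58 and -0.645. The next component held 34.5% of the variance. It placed libraries 24, 25, 26 and 33 at 11.2, 30.9, -23.8 and -18.3. Across the 14310 genes with enough counts, Pearson's r was highest between libraries 24 and 25, at 0.990. It was lowest between libraries 26 and 33, at 0.963. These are correlations across genes, which are not independent replicates. The median absolute log2 difference was also smallest between libraries 24 and 25, at 0.162, but ordered the other pairs otherwise. It was largest between libraries 25 and 26, at 0.299, then 25 and 33, at 0.278, against 0.237 between 26 and 33. The summed level of 22 visceral endoderm genes was 357.5, 284.7, 57.1 and 639 FPKM, and that of 13 primitive blood genes was 856, 674, 4695 and 376 FPKM. Library 33 was thus highest in the visceral endoderm sum and lowest in the blood sum, and library 26 the reverse. The mean visceral endoderm sum of 335 FPKM was 233 FPKM without library 33 and 427 FPKM without library 26, and the mean blood sum of 1650.1 FPKM was 635 FPKM without library 26. Counts on 4 Y-linked genes were 0 in every library, which allows at most 0.118 to 0.160 CPM and covers counting error only. Xist, the RNA that silences 1 X chromosome in female cells, was at 26.2, 28.3, 19.8 and 19.4 FPKM, so no library stood out by these genes.

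All 6 markers of the tailbud were detected. On mm39 they lie at chr7:126380655-126384732 (Tbx6), chr12:11258361-11258973 (Msgn1), chr5:147237615-147244080 (Cdx2), chr3:34704554-34706610 (Sox2), chr11:59138859-59181578 (Wnt3a) and chr19:45725237-45731354 (Fgf8). Tbx6, the T-box factor that commits cells to presomitic mesoderm, was at 29.03, 31.8, 26.05 and 26.4 FPKM. Msgn1, a basic helix-loop-helix (bHLH) factor of the presomitic mesoderm, was at 34.9, 33.6, 53.02 and 73.99 FPKM. Tbx6 lay close together in all libraries, whereas Msgn1 was highest in library 33 and then library 26. Cdx2, a caudal-type homeobox factor needed for axis extension, was at 108, 126, 77.7 and 150.3 FPKM. Sox2, the factor of neural and neuromesodermal progenitors, was at 22.2, 26.6, 23.8 and 19.6 FPKM. Wnt3a, the Wnt ligand of the tailbud, was at 11.5, 11.8, 7.88 and 17.7 FPKM. Cdx2 and Wnt3a were both highest in library 33 and lowest in library 26, and Sox2 was lowest in library 33. Fgf8, the main FGF ligand of the tailbud, was at 20.6, 38.1, 20.3 and 19.7 FPKM, with library 25 above the other 3. As mean and SD over 4 libraries, the levels were 115 ± 30.6 FPKM (SD, n = 4) for Cdx2, 48.9 ± 18.9 FPKM (SD, n = 4) for Msgn1 and 28.3 ± 2.68 FPKM (SD, n = 4) for Tbx6. They were 24.7 ± 8.94 FPKM (SD, n = 4) for Fgf8, 23.1 ± 2.94 FPKM (SD, n = 4) for Sox2 and 12.2 ± 4.07 FPKM (SD, n = 4) for Wnt3a. T, which marks the primitive streak, its progenitor descendants and the notochord, was at 54.996, 59.7, 43.04 and 52.99 FPKM and above Tbx6 in 4 of 4 libraries, with a mean log2 difference of -0.89 ± 0.12 (SD, n = 4) for Tbx6 minus T. Without library 26 the mean of Cdx2 was 128 FPKM, and without library 33 that of Msgn1 was 40.5 FPKM.

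**Figure D1:**
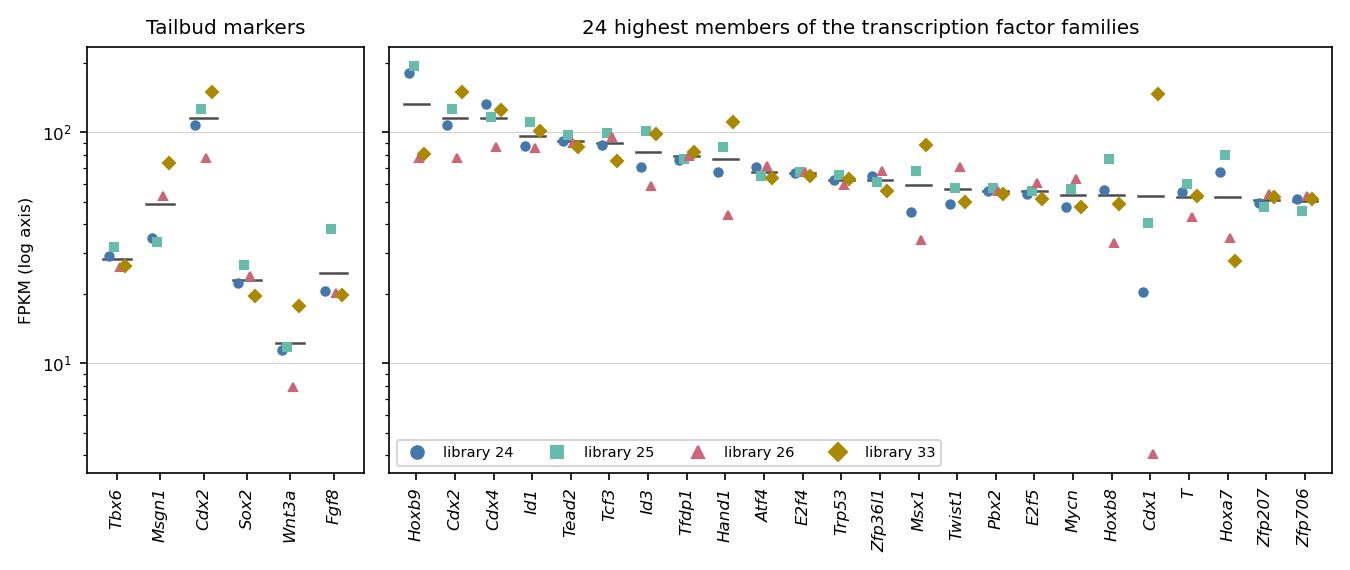
FPKM in each of the 4 wild-type libraries on a log axis for the 6 tailbud markers (left) and the 24 highest members of the transcription factor families (right), with a point for each library and a bar at the mean. The markers lie between 7.88 FPKM for Wnt3a and 150.3 FPKM for Cdx2, and Cdx1 spans the widest range of the factors, from 4.07 to 147 FPKM.

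T and Msgn1 are classical targets of Wnt signalling in the mouse tailbud, and the stretch before their annotated starts is shown because both carry the letters bound by the TCF/LEF factors of that pathway. RefSeq on GRCm38.p6, a build other than that of the files, held an entry for 6 of the 7 genes looked up, which were the 6 markers and T. Fgf8 had no entry. Both sequences run 5′ to 3′ over the 250 bases before the annotated start, with the matches in capitals. For Msgn1 the annotated start is the ATG start codon.
T, chr17:8434173-8434422, plus strand: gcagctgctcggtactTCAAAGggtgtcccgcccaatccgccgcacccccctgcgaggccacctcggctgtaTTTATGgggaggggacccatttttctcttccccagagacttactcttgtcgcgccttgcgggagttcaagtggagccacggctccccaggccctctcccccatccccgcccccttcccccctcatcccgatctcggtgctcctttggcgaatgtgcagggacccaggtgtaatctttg
Msgn1, chr12:11208949-11209198, minus strand: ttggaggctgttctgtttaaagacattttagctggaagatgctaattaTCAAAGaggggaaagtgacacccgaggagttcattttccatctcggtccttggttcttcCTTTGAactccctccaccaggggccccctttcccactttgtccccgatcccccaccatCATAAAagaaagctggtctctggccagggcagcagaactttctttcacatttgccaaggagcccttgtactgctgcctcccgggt
The TCF/LEF letters CTTTGA, read on both strands, occurred 1 time in the T window and 2 times in the Msgn1 window, and 13.8% of 32851 RefSeq windows of the same length hold them. The CDX letters TTTATG, the core bound by Cdx factors, occurred 1 time in each of these windows, and 10.8% of all windows hold them. The T-box letters GGTGTG were in neither, and 16.3% of all windows hold them. The windows of Tbx6, Cdx2 and Sox2 held none of the 3, and that of Wnt3a held the T-box letters 1 time. None of the 3 motifs overlap each other in these windows, and a match is a description of letters, not of binding.

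In all, 11170 of 56748 genes were detected, among them 10091 of 21970 protein-coding genes. Of all genes 4460 reached 10 FPKM in every library, 422 reached 100 FPKM and 15 reached 1000 FPKM. Eef1a1, the elongation factor that brings aminoacyl-tRNA to the ribosome, was the highest protein-coding gene at 4027, 4033, 3901 and 3932 FPKM. The libraries differed little in it. Ptma, a chromatin-associated acidic protein of dividing cells, was at 2331, 2319.9, 2189 and 2315 FPKM, and the chaperone gene Hsp90ab1 was at 2058, 2208, 1954 and 2238 FPKM. The ribosomal stalk gene Rplp1 was at 3007, 3385, 2164 and 3021 FPKM and the nucleolar chaperone gene Npm1 at 1506, 1522, 1284 and 1484 FPKM, both lowest in library 26. The mitochondrially encoded oxidase subunit gene mt-Co1 was at 2711, 4044, 2266 and 2211 FPKM, highest in library 25, which also had the highest share of counts on the mitochondrial genome, 1.56% against 0.901% to 1.08% in the other 3. Cytosolic ribosomal protein genes held 5.46% to 7.30% of the counts, lowest in library 26 and highest in library 25. The 10 genes with the most counts held 4.67% ± 0.23 (SD, n = 4) of a library, and the top 1000 held 50.3% ± 0.85 (SD, n = 4).

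Genes of sugar use and imprinted growth genes were among the highest. All 19 glycolysis genes were detected. Ldha, which turns pyruvate into lactate, was at 897, 879, 805 and 677 FPKM, Pkm, which makes pyruvate, at 688, 700.4, 669 and 576 FPKM, and Pgk1, an ATP-yielding kinase of the pathway, at 665, 611, 632 and 460.2 FPKM. All 3 were lowest in library 33. The glucose carrier gene Slc2a1 was at 241, 315, 171 and 304 FPKM, highest in library 25 and lowest in library 26. Gapdh was read at 47.8, 16.1, 53.8 and 50.96 FPKM, far under its neighbours in the pathway, and is uncertain because processed copies of it can take its reads. H19, an imprinted long noncoding RNA expressed from the maternal allele, was at 2539.6, 1918, 2699 and 1553 FPKM. Of 14 imprinted growth genes 14 were detected, with the hydrolase-like gene Mest at 281, 279, 338 and 253 FPKM, the retrotransposon-derived Peg10 at 179, 152, 198 and 268 FPKM and the adaptor gene Grb10 at 181, 145, 213 and 154 FPKM. Phlda2, a growth-restraining imprinted gene known from the placenta, was at 106, 106, 37.1 and 314 FPKM and set library 33 above and library 26 below the others, with a mean of 141 FPKM that was 82.997 FPKM without library 33. Processed pseudogenes such as Gm8730, at 1332, 1432, 1138 and 1301 FPKM, also ranked high, and 13649 pseudogenes together held 2.03% to 2.30% of the counts. Their reads cannot be told apart from those of the parent genes here, since the counting of shared reads is not given in the sources used here.

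Cell cycle genes were high and even. All 22 were detected and their summed level was 1427, 1491, 1448 and 1499 FPKM, with an SD of 0.028 for the mean log2 CPM of the list. Cdc20, an activator of the anaphase-promoting complex, was at 116, 127, 113 and 133 FPKM, and Mcm3, a subunit of the replicative helicase, at 117, 129.6, 114 and 112 FPKM. Of 18 stress and immediate early genes 11 were detected. Among those that respond to growth factors Ier2 was at 52.4, 58.1, 52.4 and 41.3 FPKM, Jund at 17.2, 24.5, 23.3 and 8.56 FPKM and Jun at 10.8, 8.38, 14.3 and 5.63 FPKM. Fos, the partner of Jun, was low at 0.201, 0.118, 0.148 and 0.396 FPKM, as was Egr1 at 0.667, 0.290, 0.8293 and 0.519 FPKM.

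Transcription factors held 5.09% to 5.55% of the counts, by the annotation in the deposited table, and 829 of its 1525 factors were detected. General chromatin and RNA-binding factors led that annotation, with the cold-shock factor Ybx1 at 722, 697, 657 and 675 FPKM, the RNA-binding pluripotency factor Lin28a at 200.2, 212, 157 and 252 FPKM and the high-mobility-group gene Hmgb2 at 204, 215, 185 and 210.3 FPKM. Hmga1 and Hmga1b, at 267, 233, 231 and 399 and 353, 357, 334 and 229 FPKM, share near-identical sequence, so the split between them is uncertain. Among the 1109 members of 24 families of transcription factors set by gene name, the Hox factor Hoxb9 stood first at 182, 193, 77.2 and 80.3 FPKM, with libraries 24 and 25 above libraries 26 and 33. Cdx4 was at 133, 117, 86.4 and 125 FPKM and level with Cdx2, which was above it in 2 of 4 libraries, with a mean log2 difference of -0.02 ± 0.26 (SD, n = 4). Cdx1, the third caudal factor, was at 20.4, 40.4, 4.07 and 147 FPKM and differed more between libraries than any other leading factor. Its mean was 52.9 FPKM over all 4 libraries, 21.6 FPKM without library 33 and 69.2 FPKM without library 26.

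The factors behind Hoxb9 and the Cdx genes fell into even and uneven ones. Tead2, the DNA-binding partner of the Hippo effector Yap, was at 92.2, 97.5, 90.3 and 86.6 FPKM and Tcf3, the E-protein partner of bHLH factors, at 88.2, 99.7, 95.5 and 75.5 FPKM. Tfdp1 and E2f4, which pair in cell cycle control, were at 76.1, 76.8, 79.2 and 82.5 and 66.9, 67.2, 67.6 and 64.8 FPKM, and Trp53 was at 61.96, 65.3, 59.4 and 62.9 FPKM. These levels differed little between libraries. Hand1, a bHLH factor of lateral mesoderm and the allantois, was at 67.6, 86.4, 43.8 and 110.5 FPKM, and Msx1, a homeobox target of BMP signalling, at 45.2, 68.02, 34.2 and 88.4 FPKM. Both were highest in library 33 and lowest in library 26. Twist1, a mesenchymal bHLH factor, was at 49.2, 57.4, 70.8 and 49.8 FPKM and Pitx1, a hindlimb and posterior mesoderm factor, at 42.9, 35.2, 69.5 and 32.6 FPKM, both highest in library 26. Mycn, at 47.6, 57.01, 62.7 and 47.7 FPKM, was above Myc, at 23.3, 22.9, 28.6 and 41.2 FPKM, in 4 of 4 libraries, by 0.92 ± 0.49 (SD, n = 4) on the log2 scale.

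By family, the T-box genes were led by T, then Tbx6, then the hindlimb and allantois factor Tbx4 at 13.7, 7.35, 11.9 and 45.2 FPKM, with a mean of 19.5 FPKM that was 10.99 FPKM without library 33, and 7 of 17 were detected. Of 19 Sox genes 10 were detected. Sox4 was at 32.7, 35.8, 43.6 and 43.3 FPKM and Sox11 at 29.2, 26.2, 35.1 and 21.6 FPKM, both factors of immature neural and mesenchymal cells. Sox3, at 18.2, 24.5, 19.9 and 12.02 FPKM, was under Sox2 in 4 of 4 libraries. Forkhead genes were led by Foxo4, a factor restrained by insulin signalling, at 45.2, 41.8, 43.7 and 44.8 FPKM, and 21 of 45 were detected. All 4 Tcf and Lef genes were detected, led by Tcf7 at 35.3, 31.03, 33.7 and 44.3 FPKM and Lef1 at 16.9, 18.9, 14.6 and 14.1 FPKM. All 10 E2f and Tfdp genes and all 12 Smad and Tead genes were detected, against 1 of 9 Pax genes and 1 of 15 POU genes. The Pax gene was Pax3, a factor of the dorsal neural tube and somite, at 3.04, 3.14, 3.88 and 1.90 FPKM, and Pax1 and Pax9, of the sclerotome, were under 1 FPKM in every library.

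The Hox genes formed a ladder along the 4 clusters. All 27 genes of paralogue groups 1 to 9, which act from the hindbrain to the trunk, were detected, against 6 of 12 genes of groups 10 to 13, which act in the lumbar, sacral and tail region. By mean level the highest were Hoxb9 and then Hoxb8, at 56.1, 76.4, 33.3 and 48.9 FPKM. Hoxb9 exceeded Hoxb8 in 4 of 4 libraries by 1.24 ± 0.40 (SD, n = 4) on the log2 scale. Hoxb8 exceeded Hoxa7 in only 1 of 4 libraries, so its place is not firm. Hoxa7 was at 67.6, 80.1, 34.9 and 27.9 FPKM and Hoxc8 at 72.7, 76.7, 28.1 and 21.9 FPKM, both higher in libraries 24 and 25 than in libraries 26 and 33. Hoxb1, a gene of the hindbrain and the early streak, was at 38.4, 46.5, 36.97 and 51.4 FPKM and even. Hoxb13 and Hoxc12 were close to 0, with values of 0.0714, 0, 0.0176 and 0.0234 for Hoxb13 and 0, 0, 0.0751 and 0.1003 for Hoxc12. The annotated spans of Hoxd3 and Hoxd4 overlap, as do those of Hoxc5 and Hoxc10, so reads in the shared stretch are uncertain.

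The posterior Hox genes separated library 26 from the others. Hoxc10 was at 12.4, 3.91, 112 and 2.005 FPKM, Hoxd10 at 4.10, 2.02, 23.3 and 1.57 FPKM and Hoxd11 at 1.05, 0.264, 10.6 and 0.307 FPKM. Hoxa10 was at 7.35, 3.79, 27.3 and 9.81 FPKM and Hoxd13, the last gene of its cluster, at 3.97, 2.15, 16.5 and 2.54 FPKM. Each was highest in library 26. Without that library the means of Hoxc10, Hoxd10 and Hoxd11 were 6.10, 2.56 and 0.539 FPKM, in place of 32.6, 7.73 and 3.07 FPKM, and those of Hoxa10 and Hoxd13 were 6.98 and 2.89 FPKM, in place of 12.1 and 6.28 FPKM. Hoxc5, whose span overlaps Hoxc10, was highest in library 25, at 8.27, 8.41, 6.80 and 3.78 FPKM. Summed over groups 10 to 13 the level was 36.0, 15.9, 218 and 28.6 FPKM, with 10 of the 12 genes highest in library 26 and 9 lowest in library 25. The mean of 74.7 ± 96.0 (SD, n = 4) FPKM fell to 26.8 FPKM without library 26. Groups 1 to 9 summed to 825, 913, 581 and 494 FPKM, with 18 of 27 genes lowest in library 33. Groups 10 to 13 thus held 27.3% of the summed Hox level in library 26 and 1.72% to 5.47% in the others. Hoxc6, Hoxc9 and Hoxa9, at 38.7, 39.98, 40.1 and 8.59, 33.3, 25.7, 28.5 and 5.13 and 30.1, 24.9, 28.1 and 6.05 FPKM, were lowest in library 33. The median SD of log2 CPM was 0.73 over 35 Hox genes with enough counts, against 0.22 over all 14310. Without library 33 these were 0.36 and 0.19, and without library 26 they were 0.69 and 0.19. By cluster, over all 4 libraries, the median was 0.78 for Hoxa, 1.10 for Hoxc and 0.70 for Hoxd genes. For Hoxb genes it was 0.24, close to that of all genes.

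**Figure D2:**
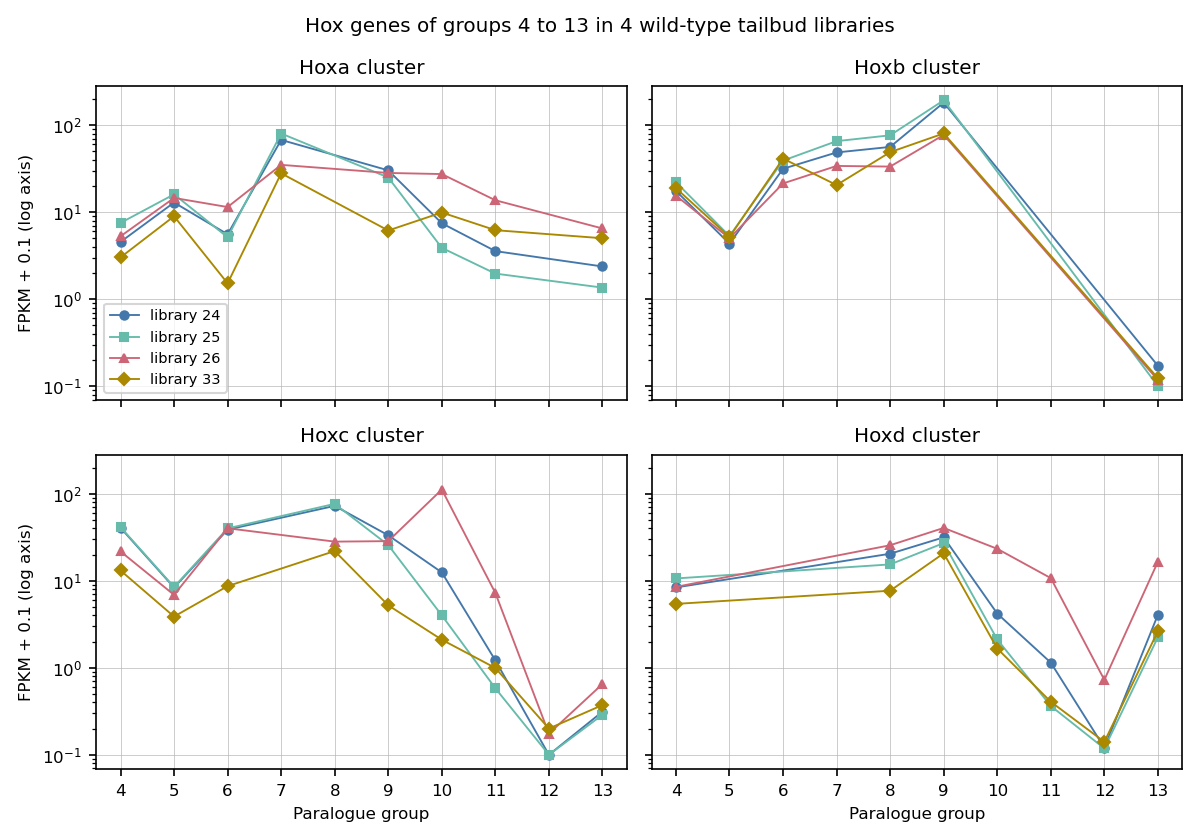
FPKM plus 0.1 on a log axis for the Hox genes of paralogue groups 4 to 13, 1 panel for each cluster and 1 line for each of the 4 wild-type libraries. Library 26 is the highest in groups 10 to 13 of the Hoxa, Hoxc and Hoxd clusters except at Hoxc12, where all values are close to 0, and Hoxc10 reaches 112 FPKM in it.

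Among FGF ligands, Fgf8, Fgf17 and Fgf18 led and could not be put in a firm order. Fgf17, a tailbud ligand of the Fgf8 subfamily, was at 25.4, 23.1, 30.1 and 6.71 FPKM, and Fgf18, of the same subfamily, at 17.02, 23.9, 19.7 and 5.88 FPKM. Both were lowest in library 33. Fgf8 was above Fgf17 in 2 of 4 libraries, with a mean log2 difference of 0.35 ± 0.98 (SD, n = 4), and above Fgf18 in 4 of 4, by 0.68 ± 0.75. Without library 25 the mean of Fgf8 was 20.2 FPKM and that of Fgf17 was 20.7 FPKM, which turned their order. Fgf3, a ligand of the streak and tailbud, was at 9.002, 10.4, 7.58 and 15.9 FPKM, and Fgf15 at 3.98, 6.28, 3.61 and 8.83 FPKM. Fgf4, which acts with Fgf8 in the presomitic mesoderm, was low at 1.002, 2.16, 0.740 and 2.93 FPKM, and Fgf9 was at 4.41, 4.09, 2.9996 and 0.590 FPKM. Of 22 FGF ligands 7 were detected and 13 were under 1 FPKM in every library.

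Fgfr1 was the highest of the 4 signalling receptors, at 18.6, 16.9, 20.7 and 21.2 FPKM. Fgfr2, at 7.71, 9.08, 9.32 and 6.85 FPKM, was under it in 4 of 4 libraries, by 1.24 ± 0.30 (SD, n = 4) on the log2 scale. Fgfr3 and Fgfr4 followed at 2.48, 2.62, 1.90 and 3.67 and 1.30, 1.83, 1.01 and 2.04 FPKM. Fgfrl1, a receptor-like protein without a kinase domain, was at 17.2, 18.4, 19.4 and 12.9 FPKM and did not differ from Fgfr1 beyond the spread. The klotho co-receptor genes Klb and Kl were under 1 FPKM in every library. Of 24 effector genes that carry the signal from the receptor to ERK, 22 were detected, led by Mapk3, which encodes ERK1, at 60.4, 68.2, 44.5 and 66.9 FPKM, and Crk, an adaptor, at 38.1, 35.5, 48.7 and 46.8 FPKM. The adaptor gene Grb2 was at 35.8, 32.6, 35.03 and 30.9 FPKM and the docking protein gene Frs2 at 5.42, 4.45, 7.17 and 8.39 FPKM. Of 16 targets and feedback inhibitors of ERK 12 were detected. Their mean log2 CPM had an SD of 0.066 between libraries, while the median SD of a single member was 0.28, against 0.22 over all genes with enough counts, and members differed in which library was highest. The phosphatase genes Dusp4 and Dusp6 were at 52.7, 33.4, 41.4 and 50.2 and 37.8, 39.4, 51.02 and 25.5 FPKM, with Dusp6 the higher in 2 of 4 libraries. The ETS factors Etv4 and Etv5 were at 35.6, 36.4, 22.2 and 44.3 and 31.6, 26.8, 29.97 and 34.5 FPKM, and the inhibitor Spry2 was at 18.2, 21.7, 15.5 and 14.2 FPKM.

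Among Wnt ligands, the noncanonical Wnt5b and Wnt5a and the ectodermal Wnt6 were above Wnt3a. Wnt5b was at 25.5, 26.4, 21.8 and 29.1 FPKM, Wnt5a at 20.3, 18.5, 30.5 and 21.2 FPKM and Wnt6 at 20.4, 29.1, 16.9 and 22.9 FPKM. These 3 did not differ beyond the spread, since Wnt5b was above Wnt5a in 3 of 4 libraries and Wnt5a above Wnt6 in 1 of 4. Wnt5b was above Wnt3a in 4 of 4, by 1.12 ± 0.31 (SD, n = 4) on the log2 scale. Wnt8a, a ligand of the early streak and progenitors, was at 3.91, 4.54, 1.51 and 34.5 FPKM, so that its mean of 11.1 FPKM was 3.32 FPKM without library 33. Wnt3, which starts gastrulation, was at 2.24, 1.94, 2.38 and 0.975 FPKM, and 10 of 19 ligands were detected. Of the receptors, Ptk7, a planar polarity receptor, was at 80.3, 79.9, 89.3 and 82.7 FPKM, Fzd10 at 34.1, 32.7, 37.9 and 43.01 FPKM and the Wnt5a receptor gene Ror2 at 21.5, 24.3, 21.2 and 24.4 FPKM. Of 23 receptor and R-spondin genes 16 were detected, and Rspo3, an enhancer of Wnt signalling in the tailbud, was at 23.96, 22.001, 21.6 and 25.4 FPKM. The targets as a list were even, with an SD of 0.027 for the mean log2 CPM of 19 genes, but single ones were not. Axin2 was at 14.8, 16.4, 16.97 and 32.6 FPKM and Sp5, a zinc finger target, at 12.9, 21.02, 8.30 and 45.1 FPKM, both highest in library 33, without which the mean of Sp5 was 14.1 FPKM in place of 21.8 FPKM. Nkd1, an inhibitor that oscillates in the presomitic mesoderm, was at 22.3, 23.6, 16.96 and 19.5 FPKM, and Notum, which inactivates Wnt ligands, at 8.94, 12.999, 3.30 and 15.5 FPKM, lowest in library 26.

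In the Notch pathway, Dll1, the main ligand of the presomitic mesoderm, was at 26.5, 32.1, 28.5 and 19.1 FPKM and Dll3, a relative that dampens the signal, at 23.5, 26.2, 28.3 and 15.9 FPKM. Dll1 was above Dll3 in 4 of 4 libraries, by 0.19 ± 0.13 (SD, n = 4) on the log2 scale, and both were lowest in library 33. Jag1, a ligand of other tissues as well, was at 7.38, 7.54, 10.2 and 12.3 FPKM. Of the receptors, Notch3 was at 12.1, 10.2, 17.3 and 8.20 FPKM, Notch2 at 6.94, 5.77, 7.81 and 8.62 FPKM and Notch1, the receptor of the segmentation clock, at 4.97, 4.42, 7.27 and 4.46 FPKM. Notch3 was above Notch2 in 3 of 4 libraries. Lfng, the clock's glycosyltransferase, was at 15.7, 13.4, 11.97 and 9.74 FPKM. The clock repressors Hes1 and Hes7 were at 29.3, 33.9, 33.1 and 23.8 and 27.3, 34.3, 10.7 and 14.7 FPKM, with Hes7 higher in libraries 24 and 25 than in libraries 26 and 33. Mesp2, which places the next somite boundary, was at 3.54, 4.25, 1.67 and 0.638 FPKM and Ripply2, its repressor, at 7.07, 3.97, 11.4 and 3.03 FPKM. Expression of several of these genes is known to cycle, and the phases that a library holds are not known.

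In the retinoic acid pathway, binding proteins and the breakdown enzyme were high. Crabp1 and Crabp2, cytoplasmic binding proteins, were at 211, 245, 138 and 228 and 142, 146, 134 and 120.2 FPKM, with Crabp1 above in 4 of 4 libraries. Cyp26a1, which breaks retinoic acid down in the tail end, was at 52.2, 46.3, 23.5 and 23.1 FPKM, and Cyp26c1, a related enzyme, at 2.28, 2.87, 1.11 and 0.918 FPKM, which is a 21.1-fold difference with Cyp26a1 above in 4 of 4 libraries. Aldh1a2, which makes retinoic acid in somites and lateral mesoderm, was at 23.1, 40.4, 16.96 and 105 FPKM. Cyp26a1 was above Aldh1a2 in 3 of 4 libraries, and library 33 was the exception. Without library 33 the mean of Aldh1a2 was 26.8 FPKM in place of 46.5 FPKM. Of the receptors, Rarg, at 35.03, 38.01, 32.5 and 40.03 FPKM, was above Rara, at 11.1, 11.4, 10.3 and 9.16 FPKM, in 4 of 4 libraries, by 1.80 ± 0.22 (SD, n = 4) on the log2 scale. Rarb was under 1 FPKM throughout, at 0.538, 0.713, 0.831 and 0.648 FPKM.

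**Figure D3:**
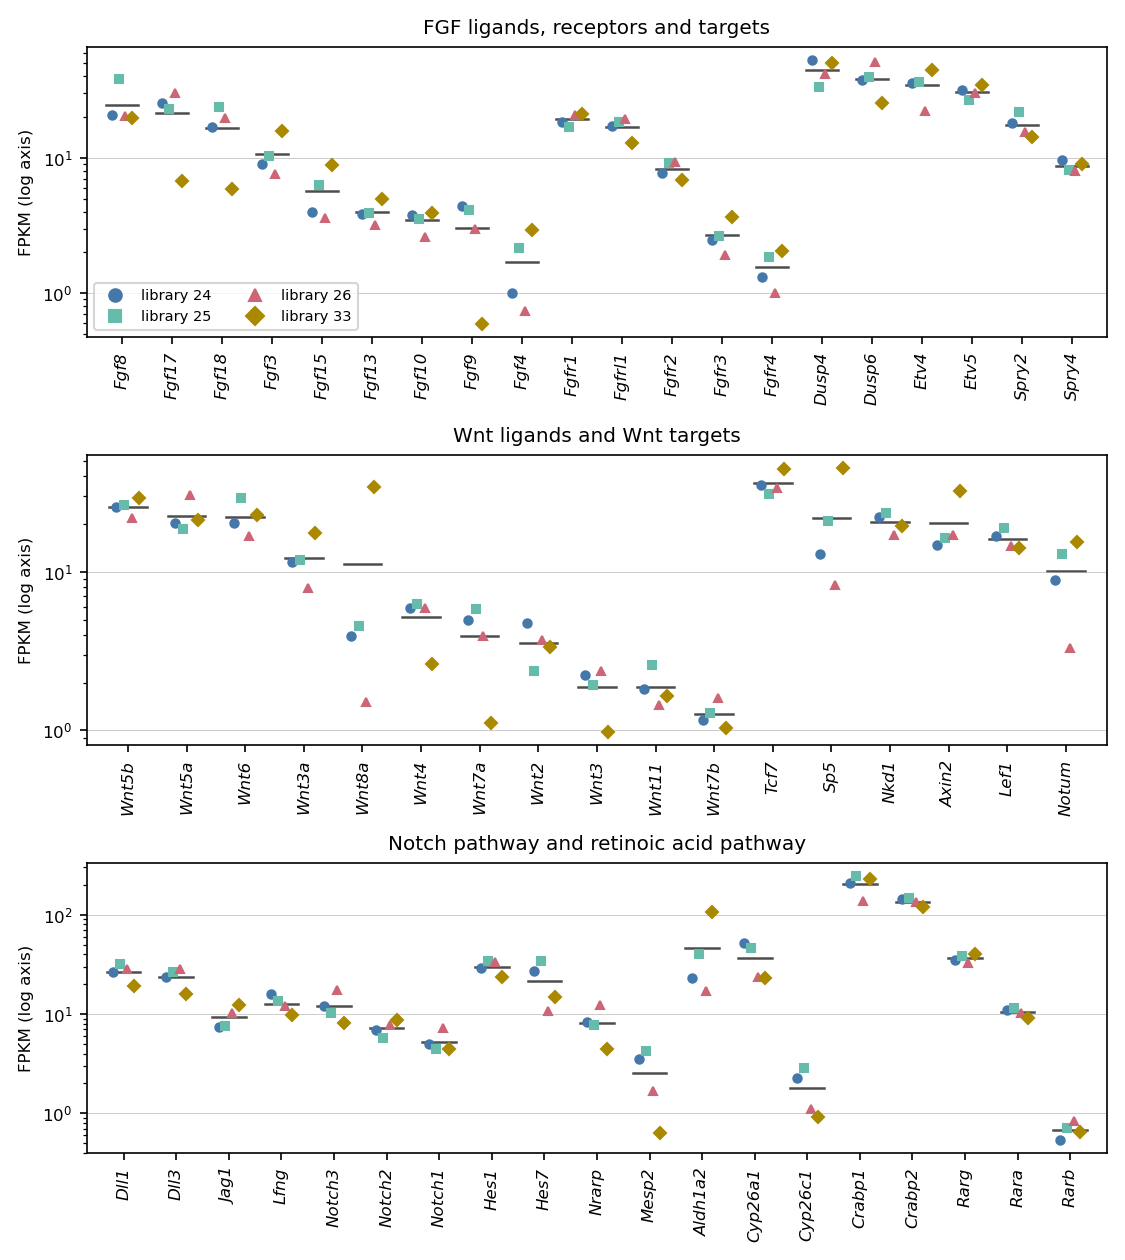
FPKM in each of the 4 wild-type libraries on a log axis for FGF, Wnt, Notch and retinoic acid genes, with a point for each library and a bar at the mean. Library 33 is the lowest point for Fgf17, Fgf9 and Wnt7a and the highest for Wnt8a, Sp5 and Aldh1a2.

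BMP ligands were led by Bmp4, a ligand of the posterior mesoderm and allantois, at 27.5, 31.3, 34.1 and 28.4 FPKM, with Bmp7 at 6.15, 7.49, 6.82 and 9.32 FPKM under it in 4 of 4 libraries. Gdf11, a ligand that ends trunk extension and turns on posterior Hox genes, was at 16.9, 14.03, 19.01 and 6.94 FPKM, lowest in library 33. The BMP targets Id1 and Id3 were at 87.04, 111, 85.4 and 102 and 71.1, 102, 58.7 and 98.3 FPKM. Nodal itself was at 0.0251, 0.177, 0.0924 and 3.43 FPKM, and its cofactor Foxh1 at 3.69, 4.21, 1.93 and 61.5 FPKM and co-receptor Cfc1 at 0.908, 1.25, 0.261 and 16.8 FPKM. All 3 were far highest in library 33, and without it the means of Foxh1, Cfc1 and Nodal were 3.28, 0.806 and 0.0982 FPKM, in place of 17.8, 4.81 and 0.931 FPKM. Hedgehog genes were led by the transducer Smo at 38.03, 38.5, 42.4 and 42.04 FPKM, and the ligand gene Shh, of notochord and gut, was at 7.65, 7.64, 8.35 and 4.74 FPKM. Pdgfra and Pdgfrb, receptors of mesenchyme, were at 15.7, 14.4, 18.4 and 17.3 and 11.1, 12.1, 12.2 and 10.5 FPKM. Ephb4 was the highest Eph receptor gene at 32.1, 28.003, 35.1 and 28.5 FPKM, and Efna1 the highest ephrin gene at 27.2, 32.4, 19.2 and 22.9 FPKM.

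Most genes of the progenitor and presomitic lists were detected. Of 16 neuromesodermal progenitor genes 15 were detected, and of 20 presomitic genes 18, against 45.9% of all protein-coding genes. The lists were chosen with earlier results of these data known, so these counts do not test completeness. Nkx1-2, a homeobox gene of the progenitor zone, was at 31.4, 24.7, 21.8 and 72.9 FPKM, Evx1, a streak and tailbud homeobox gene, at 29.9, 29.4, 22.9 and 38.9 FPKM, and Grsf1, an RNA-binding protein gene tied to Wnt signalling in the mouse embryo, at 71.1, 81.8, 61.1 and 214 FPKM. Nkx1-2 and Grsf1 were well above the other libraries in library 33. The summed progenitor level was 604, 659, 432 and 999 FPKM, and the presomitic one was 322, 362, 315 and 394 FPKM. The progenitor sum differed 2.31-fold between its extremes and the presomitic sum 1.25-fold, but single members spread alike in both, with a median SD of log2 CPM of 0.45 and 0.44. The high presomitic sum of library 33 held 105 FPKM of Aldh1a2, and by mean log2 CPM that library deviated by -0.062 from the mean of the 4. The high progenitor sum of library 33 held 214 FPKM of Grsf1 and 147 FPKM of Cdx1. By mean log2 CPM the progenitor list also deviated upward in that library, by 0.62. Sox2 was nevertheless lowest in library 33, and T was highest in library 25. Without library 33 the mean progenitor sum of 673 FPKM was 565 FPKM.

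Somite genes were lowest in library 33 as a sum, at 164, 196, 177 and 96.7 FPKM. Meox1, a homeobox gene of the somite, was at 39.4, 38.9, 33.6 and 10.9 FPKM, Tcf15, a bHLH factor of epithelial somites, at 40.003, 59.6, 32.6 and 14.3 FPKM, and Uncx, of the posterior compartment of each somite, at 3.08, 3.42, 2.41 and 0.181 FPKM. These 3 were lowest in library 33, but Twist1, the highest member of the list, was at 49.2, 57.4, 70.8 and 49.8 FPKM, lowest in library 24. Of 18 somite genes 6 were detected. Myf5, the first muscle determination factor, was at 0.101, 0.0890, 0.0930 and 0.0497 FPKM. Of 21 neural tube genes 8 were detected, and their sum was 138, 182, 136 and 145 FPKM, highest in library 25. Msx1, the highest member, which mesoderm also expresses, was at 45.2, 68.02, 34.2 and 88.4 FPKM, highest in library 33. Irx3, a neural tube homeobox gene, was at 18.5, 24.5, 24.2 and 6.70 FPKM and Zic2, of the dorsal neural plate, at 14.5, 14.04, 13.3 and 9.80 FPKM. Olig2, of motor neuron progenitors, was low, at 0.767, 0.550, 0.781 and 0.0204 FPKM. Intermediate mesoderm, which the labels name, rested on fewer genes, with 4 of 10 detected. Osr1, its early factor, which lateral mesoderm also expresses, was at 16.9, 23.3, 12.3 and 18.8 FPKM and Lhx1 at 4.21, 4.71, 2.24 and 10.5 FPKM. The kidney factors Pax2 and Pax8 were at 1.83, 1.98, 0.859 and 0.860 and 0.952, 0.926, 0.332 and 0.196 FPKM, so Pax8 was under 1 FPKM in every library. Lateral plate and allantois genes were prominent, with 14 of 17 detected, and Foxf1, of splanchnic mesoderm, was at 38.3, 42.97, 19.8 and 47.1 FPKM and Hand2 at 29.7, 34.3, 33.2 and 26.1 FPKM. Nkx2-5, of the heart, was at 0.0305, 0, 0 and 0.391 FPKM. In bulk tissue, fewer cells of a type and less RNA per cell cannot be told apart.

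Some genes of other tissues were detected in all 4 libraries, and others were not. Of 22 visceral endoderm genes 8 were detected, which needs every library, while 19 reached 1 FPKM in at least 1 library. Alb stayed at or under 0.119 FPKM. The thyroid hormone carrier gene Ttr, the lipoprotein genes Apob and Apoe and the retinol carrier gene Rbp4 were at 45.2, 19.04, 0.425 and 87.8, 4.69, 2.23, 0.0890 and 13.7, 52.9, 49.3, 6.29 and 150.3 and 53.7, 37.8, 4.18 and 88.4 FPKM. Library 26 was lowest and library 33 highest in each. Afp, of the same list, was at 35.6, 20.4, 2.58 and 22.5 FPKM, lowest in library 26 but highest in library 24. Without library 33 the means of Ttr, Apob and Apoe were 21.5, 2.33 and 36.2 FPKM, in place of 38.1, 5.17 and 64.7 FPKM. Of 13 primitive blood genes 10 were detected, with the embryonic globin genes Hbb-bh1 at 407, 303, 1793 and 252 FPKM, Hba-x at 189.7, 170.3, 899 and 88.05 FPKM and Hbb-y at 178, 106, 1685 and 1.39 FPKM, all highest in library 26. Globins held 0.0599%, 0.0485%, 0.326% and 0.0255% of the counts. Without library 26 the mean of Hbb-y was 95.1 FPKM in place of 493 FPKM, that of Hbb-bh1 320.5 in place of 689 FPKM and that of Hba-x 149 in place of 337 FPKM. Of 14 endothelial genes 13 were detected. Etv2, the factor that starts the blood and endothelial lineage, was at 14.7, 17.04, 3.29 and 31.1 FPKM and the endothelial cadherin gene Cdh5 at 11.7, 12.8, 23.4 and 5.38 FPKM, and their order between libraries 26 and 33 was opposite. Keratin genes of simple epithelia were high, with Krt8 at 186, 241, 111 and 232 FPKM and Krt18 at 148, 214, 99.04 and 188 FPKM, while the basal keratin gene Krt5 was at 1.505, 1.60, 1.89 and 0.541 FPKM. Noto, of the notochord, was at 4.49, 4.05, 3.75 and 4.20 FPKM. Of 10 neural crest genes 7 were detected, and the crest-specific Sox10 was at 0.0688, 0.198, 0.0889 and 0.237 FPKM. Eomes, of trophoblast and the streak, was at 0.0632, 0.0781, 0.0280 and 0.137 FPKM.

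The summed epiblast and primitive streak list was 88.3, 95.5, 67.3 and 159 FPKM, highest in library 33, with 4 of 18 genes detected. T, its highest member, did not share that pattern and was highest in library 25, at 54.996, 59.7, 43.04 and 52.99 FPKM. Pou5f1, the pluripotency factor Oct4, was at 1.49, 1.90, 0.999 and 33.4 FPKM, or 9.44 FPKM as a mean and 1.46 FPKM without library 33. Mixl1, of the primitive streak, was at 2.86, 2.16, 1.60 and 5.86 FPKM and Dnmt3b, the methyltransferase of epiblast, at 19.1, 18.9, 15.1 and 39.8 FPKM. Nanog was under 1 FPKM throughout, at 0.117, 0.124, 0.328 and 0.807 FPKM, as was Fgf5, an epiblast ligand, at 0.126, 0.148, 0.0774 and 0.331 FPKM. Of 12 primordial germ cell genes 5 were detected, led by Ifitm3 at 22.4, 23.3, 16.9 and 19.2 FPKM, and next to it came Pou5f1 and Kit, a receptor that blood also expresses, at 5.34, 5.59, 6.08 and 7.61 FPKM. The germ cell genes Dppa3 and Nanos3 were at 1.59, 0.780, 0.999 and 1.97 and 0.227, 0.552, 0.377 and 0.560 FPKM.

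**Figure D4:**
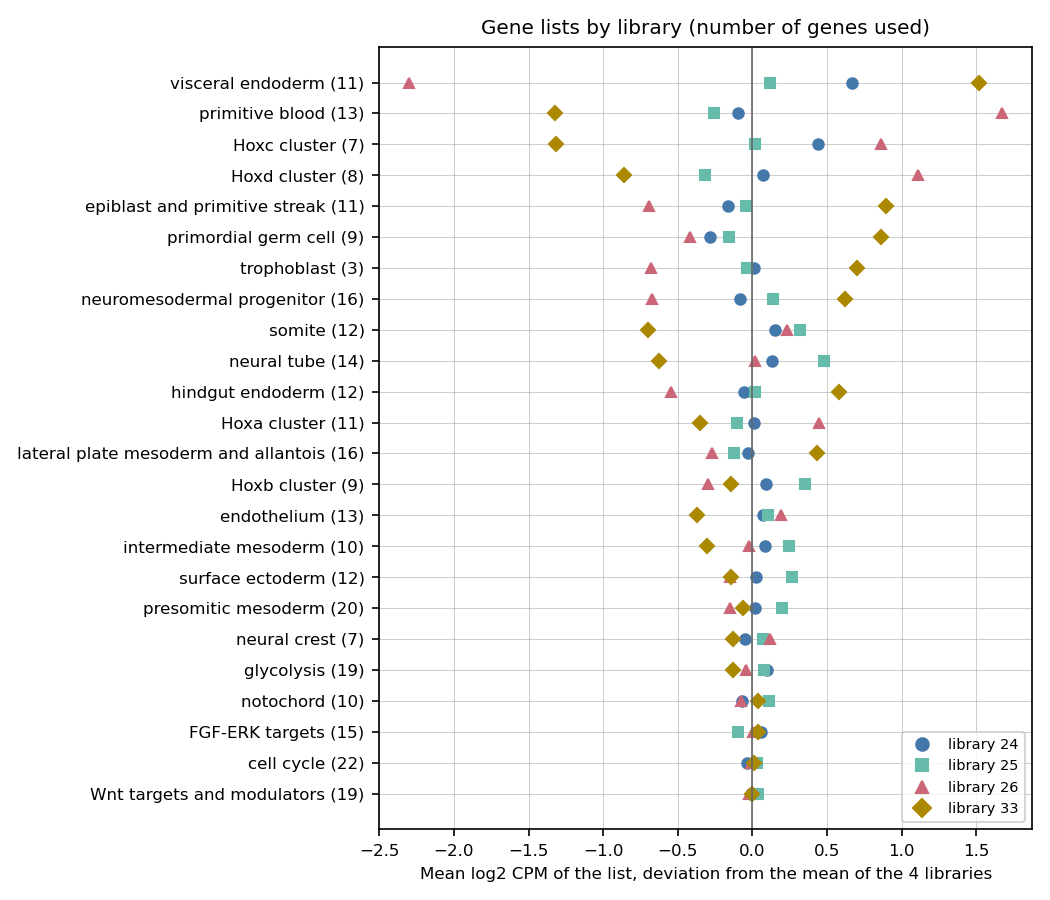
Deviation of each library from the mean of the 4 wild-type libraries in the mean log2 CPM of each gene list, sorted by the spread, with the number of genes used in brackets. Libraries 26 and 33 take opposite ends for visceral endoderm (-2.30 and 1.52) and primitive blood (1.67 and -1.32), and the Wnt target and cell cycle lists lie close to 0.

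The spread between libraries was small for most genes. edgeR's common biological coefficient of variation, the spread beyond counting error, was 0.221, and the median SD of log2 CPM was 0.22 over 14310 genes. It was 0.24 over 1104 transcription factors and 0.21 over 80 ribosomal protein genes. The gene-wise coefficient fell with level, from a median of 0.299 at 1 to 5 CPM to 0.129 above 100 CPM, where counting alone gives 0.0169. Depth therefore set the precision less than the spread between libraries did. Mdm4, which restrains Trp53, was the most even gene, at 7.90, 7.81, 7.95 and 7.87 FPKM, followed by Sae1, of the SUMO pathway, at 148, 146, 148 and 148 FPKM, and the nuclear import gene Kpnb1 was at 189, 184, 186 and 186 FPKM. Hbb-y had the widest spread, then Ttr, Apob, the vitamin B12 receptor gene Cubn and Hoxc10.

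Genes that 1 library set at least 2-fold above or below each of the other 3 were counted among 11015 genes with a mean of 5 CPM or more. Library 26 was above in 58 genes (0.527%) and below in 64 (0.581%). Library 33 was above in 94 genes (0.853%) and below in 138 (1.25%). Library 25 was above in 6 (0.0545%) and below in 3 (0.0272%), and library 24 above in 0 (0%) and below in 1 (0.00908%). Against these shares, library 33 was above in 5 of 16 progenitor genes, Wnt8a, Cdx1, Sp5, Grsf1 and Nkx1-2, and in 4 of 15 lateral plate and allantois genes, Gata4, Tbx4, Tbx2 and Tbx20. It was also above in 5 of 11 visceral endoderm genes. It was below in 4 of 8 somite genes, Uncx, Meox1, Foxd1 and Tcf15, in 3 of 10 neural tube genes and in 3 of 8 blood genes. Library 26 was above in 7 of 8 blood genes and 7 of 34 Hox genes, and below in 7 of 11 visceral endoderm genes. Denominators are the members with a mean of 5 CPM or more. Library 26 set 0 of 8 somite genes apart, as its shares of 0.527% and 0.581% over all genes would give, so this tells nothing of them. Libraries 26 and 33 also held the extremes of the visceral endoderm and blood sums, and the part of RNA from those tissues in the other differences was not tested. Lyve1, a lymphatic and macrophage hyaluronan receptor, was above in library 25, at 0.773, 7.94, 0.597 and 0.407 FPKM, with a mean of 2.43 FPKM that was 0.593 FPKM without it, and Postn, a matrix protein of mesenchyme, below in library 33, at 11.9, 9.03, 12.9 and 0.814 FPKM.

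**Figure D5:**
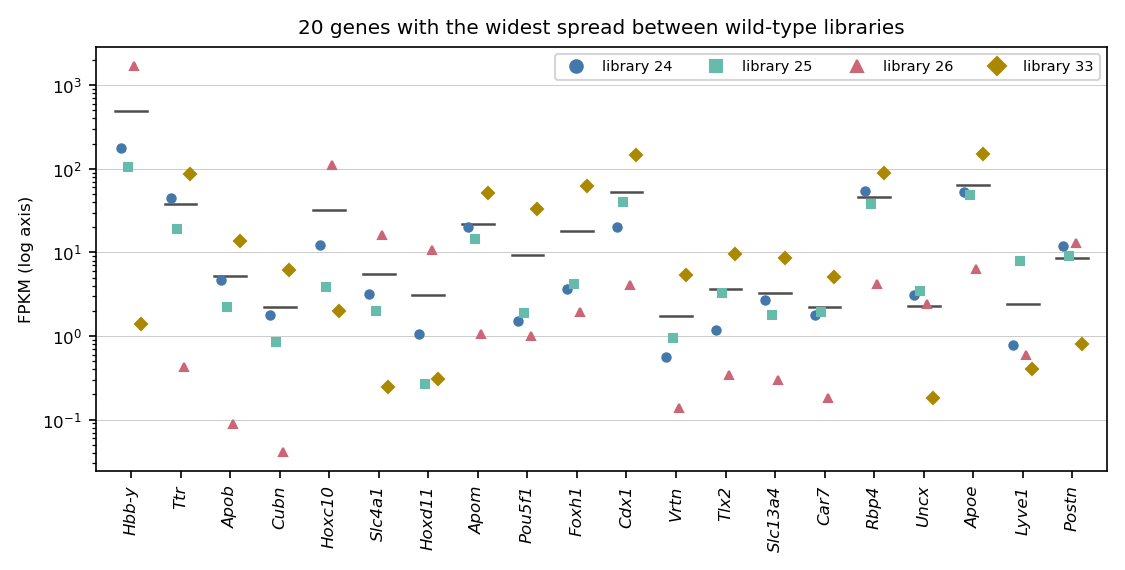
FPKM in each of the 4 wild-type libraries on a log axis for the 20 genes with the widest spread of log2 CPM among genes with a mean of 5 CPM or more, with a point for each library and a bar at the mean. Library 26 or library 33 is the highest for all but Uncx and Lyve1, which are highest in library 25.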

How the data were processed

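PolyA RNA of the microdissected tailbud was sequenced after stranded mRNA library preparation, per the labels' protocols. The submitters' processing notes name the aligner HISAT2, the read counter featureCounts and the build mm39, without saying how each was used. Versions, the annotation release and the counting options, use of strand included, are not given in the sources used here, so overlapping and antisense genes and near-identical copies are uncertain. The authors deposited whole-number counts and FPKM values for the same 56748 genes. Recomputed from the counts and the lengths in the table, the deposited FPKM are multiples of count per length, with a denominator 1.18% to 1.98% above each library's table total. The authors' deposited tables of comparisons between genotypes were not used.

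Libraries were grouped by the genotype in the column names. FPKM was used for levels between genes and counts for the spread between libraries. In R 4.3.3, edgeR 4.0.16 kept 14310 genes with filterByExpr, which held at least 99.7% of each library's counts. It gave TMM factors between 0.995 and 1.01, log2 CPM at prior count 2, and dispersions with an intercept only. The dispersion step was tested on simulated data. Where a symbol occurs more than once, the gene with the highest mean FPKM was used. No test between groups was made.

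The genes and the 42 gene lists, with 587 symbols of which 1 was not found, were chosen with earlier results of these data known. The rule for named genes takes the 6 markers, the 25 highest coding genes, the 30 highest transcription factors of the families, the 4 highest members of each list, any FGF ligand, Wnt ligand, Hox, Notch or retinoic acid gene, and the 20 most and 10 least variable genes. Some genes that the rule takes are not reported here. Other genes in the text were chosen after their values were seen. Alternatives were other FPKM minimums, TPM, FPKM recomputed with TMM, DESeq2 1.42.0 size factors, library totals, other filters and prior counts, and each library left out in turn. Counts of genes that 1 library sets apart, and their alternatives, were added after the data were seen.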

Additional observations from a re-analysis of the deposited data

Results flagged for a closer look

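In 26 of 206 values examined (186 genes and 20 summed lists), 1 library lay far from the other 3 relative to the whole range. The rule was Dixon's criterion at its 95% level, which chance meets in about 1 group in 20. The 26 cannot be set against that share, because the genes include the most variable ones and some chosen after their values were seen. Of the 26 values, 12 were in library 33, 10 in library 26, 4 in library 25 and 0 in library 24.

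In library 33 the high values were Pou5f1 at 33.4, Foxh1 at 61.5, Nodal at 3.43, Cfc1 at 16.8, Wnt8a at 34.5, Axin2 at 32.6, Grsf1 at 214, Dnmt3b at 39.8, Tbx4 at 45.2 and Nkx2-5 at 0.391 FPKM. Hoxc6 was low in it, at 8.59 FPKM, and the summed lateral plate and allantois list was high, at 366 FPKM.

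In library 26 the high values were Hbb-y at 1685, Hbb-bh1 at 1793, Hba-x at 899, Hoxc10 at 112, Hoxd10 at 23.3, Hoxd11 at 10.6 and Hoxd13 at 16.5 FPKM, and the summed blood list at 4695 FPKM. Ptma at 2189 and Npm1 at 1284 FPKM were low in it, by a small fold. In library 25 Fgf8 at 38.1 and Lyve1 at 7.94 FPKM were high, and Gapdh at 16.1 and Sae1 at 146 FPKM were low, the last within the 10 most even genes.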

How the results depend on the processing

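No paired analysis was possible because there is 1 group and the column names carry no replicate number. Of 11170 detected genes 6759 reached 5 FPKM. TPM rescales each column and set the markers at 90.4 for Tbx6, 157 for Msgn1, 367 for Cdx2, 73.6 for Sox2, 38.9 for Wnt3a and 78.3 for Fgf8, and moved all 180 other gene levels examined, whereas FPKM recomputed with TMM moved 4 of them by more than 1 SD. With 4 libraries, leaving out 1 cannot move a mean by 1 SD, so that measure says nothing of it. As chosen after the data were seen, a change of over 1.5-fold in the mean was counted instead. By that count, leaving out 1 library moved 26 of 186 genes, which were partly chosen for their spread. Without a filter on low counts the common coefficient of variation was 0.263 and the median SD of log2 CPM 0.33, and the latter was 0.18 for genes of 5 CPM or more. Leaving out 1 library gave 0.190 to 0.258 and 0.19 to 0.24. With a minimum of 1 CPM, genes apart numbered 116 above and 136 below in library 26, and 177 above and 242 below in library 33. Leaving out 1 library gave 69 to 108 above and 74 to 109 below in library 26, the most without library 24, and 107 to 122 above and 158 to 191 below in library 33. The summed level of Hox groups 10 to 13 ranged from 26.8 to 94.2 FPKM when 1 library was left out. The highest member of a list was the same in 37 to 38 of 42 lists. Without library 25 Fgf17 led the FGF ligands and Hoxc10 the Hoxc cluster, without library 26 Foxh1 led the Nodal list, and without library 33 Cdx4 led the progenitor list and Dusp6 the ERK targets. The causes were not tested. Expression levels rest on 4 libraries of 1 stage, whose number limits the precision more than their depth does.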
